A study of Mus musculus with 32 samples.

Results

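The 10 circadian clock genes Arntl, Clock, Per1, Per2, Per3, Cry1, Cry2, Nr1d1, Nr1d2 and Dbp were followed through 32 RNA sequencing libraries of primary mouse chondrocytes, the cells that build and maintain cartilage. The genes were chosen by name, and their symbols were matched to the Ensembl gene identifiers of the count files through GENCODE release M21. All 10 were found among the 41388 identifiers, and all 10 passed the filter on low counts in every comparison. By the labels the cells came from the sternum of C57BL/6 pups, the study's general methods name the ribs of newborn mice as well, and the cells were not passaged. Wild-type (WT) chondrocytes received no virus, and their cultures stayed untreated or held IL-1β, an inflammatory cytokine, FX11, an inhibitor of lactate dehydrogenase A, or both, for 24 h. Chondrocytes of 3 floxed lines (Ldha f/f or Nampt f/f or Nfkbiz f/f, named below by the floxed gene) were infected with adenovirus expressing GFP (the controls) or Cre recombinase, and 24 h later were cultured with or without IL-1β (10 ng/mL) for another 24 h. Ldha encodes a subunit of lactate dehydrogenase, Nampt the rate-limiting enzyme of NAD salvage, and Nfkbiz the nuclear protein IκB-ζ, which acts with NF-κB.

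Each of the 16 conditions had 2 libraries. All floxed cultures carried the floxed alleles and an adenovirus, controls included, and no WT culture received Cre virus, so the loss of a gene and the presence of Cre virus cannot be told apart within a line. The labels do not say whether the 2 libraries of a condition came from separate litters or cultures, and p-values therefore measure the spread between these libraries, which may be technical. Cells were collected at 1 time after treatment, so that a change in a clock gene's level and a shift in the phase of its cycle cannot be told apart. Likewise, in these bulk libraries, fewer cells of a type and less RNA per cell cannot be told apart.

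The circadian clock is a feedback loop of transcription that runs in most cells, chondrocytes included, with a period near a day. CLOCK and BMAL1, the product of Arntl, bind E-box sequences as a pair and activate the Per and Cry genes, whose products return to the nucleus and inhibit the pair. In a linked loop the receptors REV-ERBα (Nr1d1) and REV-ERBβ (Nr1d2), also targets of CLOCK and BMAL1, repress Arntl through ROR response elements, while DBP, a further target, activates genes that hold D-box sequences, among them Per genes.

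Upstream sequences were compared with the classical motifs of this loop in windows of 250 bases before and 50 bases after each RefSeq start site on build GRCm38.p6. RefSeq windows were matched for 9 of the 10 genes, 13 windows in all, and Per2 had none. Motifs were searched on both strands by exact letters: the E-box CACGTG, the E′-box CACGTT, the D-box TTATGTAA or TTACGTAA, the ROR element core TAGGTCA or TGGGTCA, and the CRE TGACGTCA. Per3 was the single member with a D-box, and its window held 2 copies, against 1.056% of 32851 promoter windows with any. Cry1 held 1 E-box and 1 E′-box, and Nr1d1 held 1 E′-box. The 250 bases upstream of these 3 genes are shown because Per3 had the largest fall and Nr1d1 the largest rise with Cre of any member in a single line, both described below, and Cry1 responded to IL-1β in the direction opposite to most members. Capitals mark the motif matches, and an E′-box on the other strand reads AACGTG.
Per3, chr4:151044666-151044915, minus strand: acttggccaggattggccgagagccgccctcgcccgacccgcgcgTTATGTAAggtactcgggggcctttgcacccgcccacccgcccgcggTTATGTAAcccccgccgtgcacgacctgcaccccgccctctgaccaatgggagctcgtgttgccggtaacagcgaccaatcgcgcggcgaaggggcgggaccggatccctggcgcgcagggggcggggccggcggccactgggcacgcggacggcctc
Cry1, chr10:85185055-85185304, minus strand: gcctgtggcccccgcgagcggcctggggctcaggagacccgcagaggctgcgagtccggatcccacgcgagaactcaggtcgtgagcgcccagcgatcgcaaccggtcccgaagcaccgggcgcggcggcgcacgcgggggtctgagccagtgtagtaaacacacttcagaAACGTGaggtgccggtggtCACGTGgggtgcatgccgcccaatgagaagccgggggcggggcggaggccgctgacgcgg
Nr1d1, chr11:98775378-98775627, minus strand: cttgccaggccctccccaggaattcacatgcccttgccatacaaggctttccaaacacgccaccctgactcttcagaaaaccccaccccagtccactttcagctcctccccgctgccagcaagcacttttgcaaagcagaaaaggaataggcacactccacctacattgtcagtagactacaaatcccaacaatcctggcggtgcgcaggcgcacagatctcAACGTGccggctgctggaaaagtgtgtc

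The 2 D-boxes of Per3 began at positions -205 and -158 from its start site. The E-box of Cry1 began at -60 and its E′-box at -79, and the E′-box of Nr1d1 began at -28. Elsewhere, 1 of the 2 Per1 windows held an E-box, Cry2 held an E′-box, and 1 of the 2 Arntl windows held a ROR element core at position 31. Over all windows, 7.15% held an E-box, 4.685% an E′-box and 6.453% a ROR element core. None of the 13 windows held a CRE, which 1.79% of all windows did. No motif was found in the windows of Clock, Nr1d2 and Dbp. A match is a description of letters and not a measured binding site.

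The libraries held between 15830658 and 39959888 counts. Read counts of the members ranged from 36 for Dbp in 1 library to 4214 for Clock in another, and normalised read counts are given as CPM (counts relative to library size) scaled by trimmed mean of M-values (TMM). The labels number 2 sets of libraries by the form of their titles, 12 in set 1 and 20 in set 2. WT, the Ldha line and the Nampt line have 1 library of each condition in each set, and the Nfkbiz line has both of its libraries in set 2. The targeted genes matched the labels: Ldha fell from between 869 and 1557 CPM to between 72.9 and 118 with Cre in the Ldha line, and Nampt fell from between 54.6 and 68.4 CPM to between 4.63 and 6.86 in the Nampt line. Nfkbiz under IL-1β was at 235 and 229 CPM with GFP and at 29.5 and 32.3 with Cre in the Nfkbiz line. Without IL-1β it was low already with GFP, at 16.1 and 17.0 CPM, and at 9.65 and 8.28 with Cre. By the IL-1β response genes Mmp3 and Lcn2, 2 WT libraries of set 2 ran against their labels. The library labelled IL-1β held 0.784 CPM of Mmp3 and 17.2 of Lcn2, as untreated libraries did, and the library labelled FX11 held 2016 and 12540.

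All 10 defining chondrocyte genes, among them Col2a1, Acan and Sox9, were expressed in the libraries. Their summed level ranged from 72000 to 99600 CPM in untreated libraries without Cre, from 24900 to 78600 with IL-1β, from 50100 to 86000 with Cre and from 13900 to 39500 with both, WT libraries included. Markers of fibroblasts, at 680 to 7260 CPM summed over 6 genes, were also lowest with Cre and IL-1β, at 680 to 2150. Those of leukocytes summed to 12.6 to 220 CPM over 5 genes, of muscle to 1.96 to 207 over 5, of endothelium to 1.20 to 24.7 over 3 and of the erythroid lineage to 0.732 to 41.4 over 3. The chondrocyte list moved with the same treatments as the clock genes, and its part in their changes was not tested.

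On GRCm38, Arntl lies at chr7:113207465-113314122 and Clock at chr5:76212177-76304548. Per1 lies at chr11:69095217-69109960, Per2 at chr1:91415982-91459324, Per3 at chr4:151003652-151044665, Cry1 at chr10:85131702-85185054 and Cry2 at chr2:92403646-92434043. Nr1d1 lies at chr11:98767932-98775333, Nr1d2 at chr14:18204054-18239127 and Dbp at chr7:45705088-45710155. Values are summed over the exons of each gene. Levels were compared between genes per kilobase of exon in the 6 GFP libraries without IL-1β. Clock stood highest with a median of 14.2 CPM per kilobase (12.9 to 16.3). Per1 at 8.78, Arntl at 7.47, Nr1d1 at 7.26, Cry1 at 6.78, Cry2 at 6.77 and Nr1d2 at 5.28 followed, and each overlapped its neighbour in this order. Per3 at 3.52 (3.02 to 3.74), Per2 at 3.15 and Dbp at 1.86 were the lowest, and again the neighbours overlapped. Clock did not overlap Per1, and Nr1d2 did not overlap Per3. Across all 32 libraries the level of Per3 varied most, 12.5-fold from 5.56 to 69.4 CPM, and that of Clock least, 1.75-fold from 69.5 to 122 CPM.

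**Figure D1:**
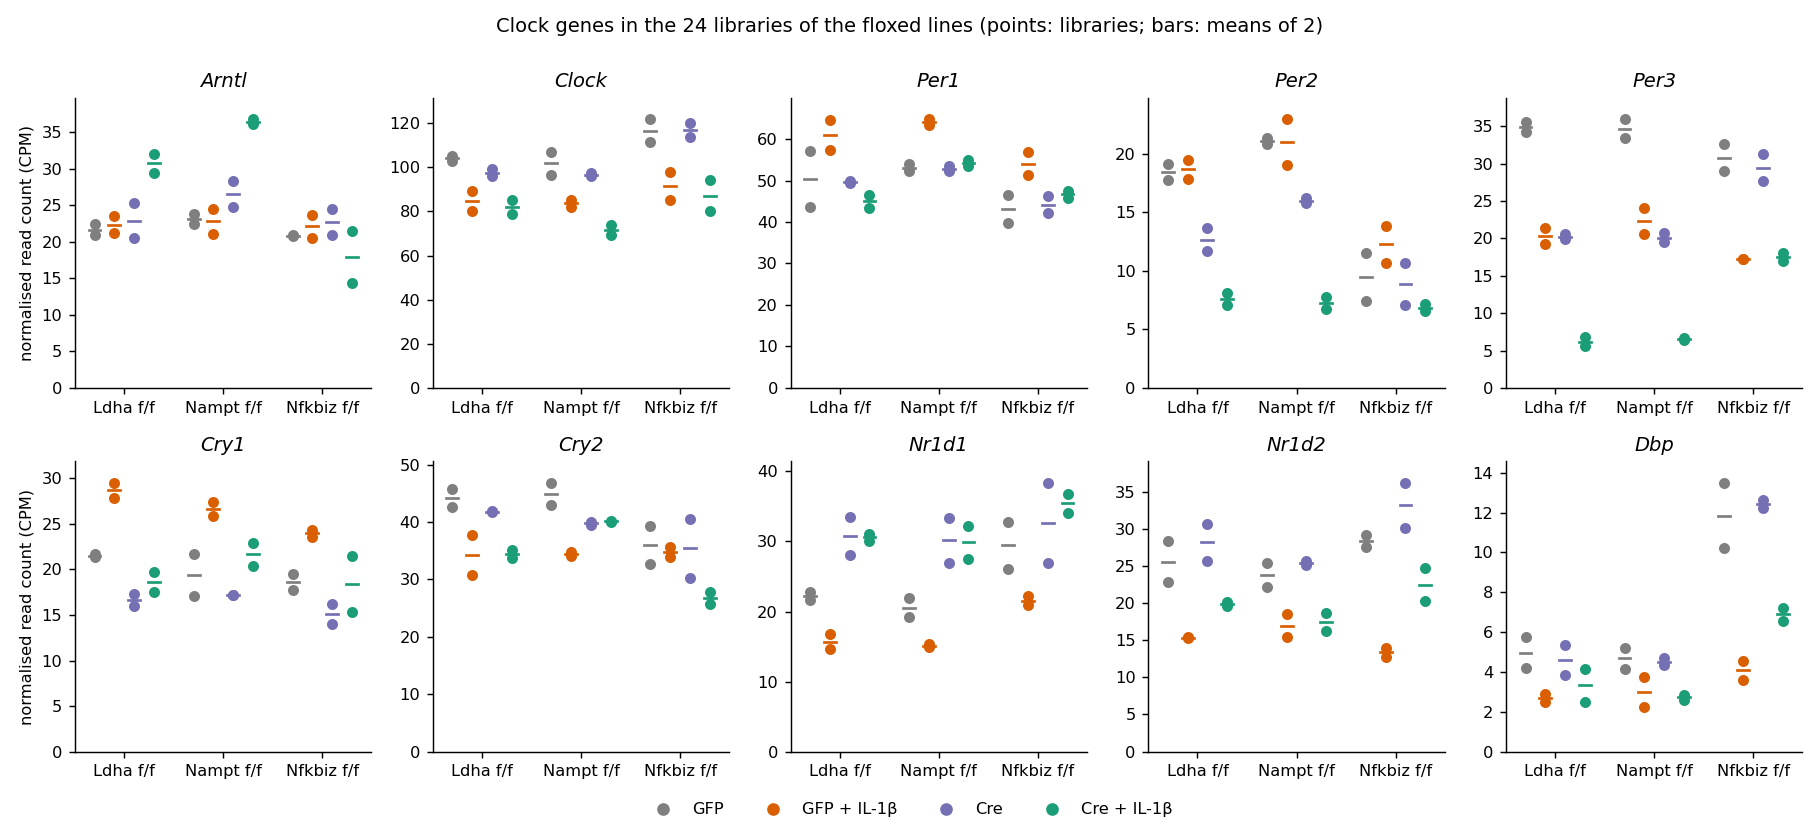
Normalised read counts (CPM, linear axes from 0) of the 10 clock genes in the 24 libraries of the floxed lines, with each point a library and each bar the mean of 2. With Cre and IL-1β together, Per3 lay between 5.56 and 6.78 CPM in the Ldha line and the Nampt line and at 18.1 and 17.0 in the Nfkbiz line.

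The first question was how the inflammatory stimulus alone changed the clock genes, in control cultures that carried GFP virus. IL-1β lowered Dbp, Nr1d2, Per3, Nr1d1, Clock and Cry2 and raised Cry1 and Per1. Averaged over the 3 lines, 8 of the 10 members passed the test, where 52.9% of 16727 genes did. Of these, 6 fell, where 25.3% of all genes did, and 2 rose, where 27.7% did. The median log2 fold change of the members was -0.27, against 0.02 for all genes. Tests are edgeR's quasi-likelihood tests with Benjamini-Hochberg adjustment over all genes, errors of fold changes are standard errors, and a gene passed at an adjusted p of 0.05 or less.

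Of the activators, Arntl was at 20.5 to 24.5 CPM with IL-1β (median 22.4, n = 6) and 20.8 to 23.8 without (median 21.7, n = 6), and its log2 fold change of 0.05 ± 0.07 did not pass by edgeR (adjusted p = 0.554). Clock fell by 0.29 ± 0.05 (adjusted p = 2.14e-05) on the log2 scale. In every line both Clock values with IL-1β lay under both without, although the pooled ranges of 80.4 to 97.7 and 96.7 to 122 CPM just overlapped.

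Of the repressors, Per3 fell most, from 29 to 35.9 CPM (median 33.8) to 17.2 to 24 (median 19.9). The 6 values with IL-1β lay below the 6 without, and Per3 fell by 0.74 ± 0.06 (adjusted p = 2.98e-10) in the edgeR fit. Cry1 rose from 17.1 to 21.7 CPM (median 20.4) to 23.6 to 29.5 (median 26.7), again with no overlap, by 0.43 ± 0.07 (adjusted p = 2.74e-05). Per1 rose by 0.31 ± 0.06 (adjusted p = 6.66e-05) and in each line both values with IL-1β were above both without. Cry2, the paralog of Cry1, fell by 0.25 ± 0.06 (adjusted p = 0.00218), and its ranges of 30.8 to 37.8 and 32.7 to 46.8 CPM overlapped. Its change was -0.37 ± 0.11 in the Ldha line, -0.36 ± 0.08 in the Nampt line and -0.04 ± 0.14 in the Nfkbiz line, and the averaged call was lost in library set 2 alone (-0.24, adjusted p = 0.091). Per2 was at 10.7 to 23 CPM with IL-1β and 7.43 to 21.4 without, and its difference of 0.14 ± 0.10 did not pass (adjusted p = 0.264).

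Both REV-ERB genes fell. Nr1d2 went from 22.2 to 29.2 CPM (median 26.4) to 12.8 to 18.5 (median 15.4) with no overlap, and fell by 0.75 ± 0.07 (adjusted p = 5.83e-09). Nr1d1 fell by 0.44 ± 0.08 (adjusted p = 3.94e-05). Dbp, the output factor, had the largest change of the members and fell by 1.00 ± 0.13 (adjusted p = 9.55e-07). It lay at 2.22 to 4.56 CPM with IL-1β and 4.15 to 13.5 without, so that the pooled ranges overlapped, while in each line both treated values were below both untreated ones. In the Nfkbiz line the untreated Dbp values of 13.5 and 10.2 CPM stood above the 4.21 and 5.73 of the Ldha line and the 5.23 and 4.15 of the Nampt line.

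Line by line, 6 members passed in the Ldha line (27.9% of all genes did), 7 in the Nampt line (35%) and 5 in the Nfkbiz line (26.8%). Clock, Per3 and Nr1d2 fell in each. The calls of Per3 held in every fit that left out 1 library, whereas those of Clock were lost in 2 of 4, 2 of 4 and 4 of 4 such fits in the Ldha line, the Nampt line and the Nfkbiz line. The change of Nr1d2 was -0.74 ± 0.12 in the Ldha line, -0.48 ± 0.12 in the Nampt line (lost in 2 of 4 such fits) and -1.07 ± 0.14 in the Nfkbiz line. That of Dbp was -0.87 ± 0.29 in the Ldha line (adjusted p = 0.0522), -0.62 ± 0.26 in the Nampt line (adjusted p = 0.0902) and -1.52 ± 0.19 in the Nfkbiz line (adjusted p = 7.76e-05), and passed in the last alone. With a replicate block, which in the Ldha and Nampt lines is the library set, Dbp passed in those lines too by edgeR (adjusted p = 0.012 and 0.0263), and Per1 in the Ldha line (0.0251). Dbp passed in the Ldha line also with DESeq2, without a filter on low counts and in the 24-library fit (adjusted p of 0.0053 to 0.0405). No member's response to IL-1β differed between lines by edgeR in any of the 3 pairs of lines, where 0.012%, 2.42% and 4.01% of genes did for the Nampt line against the Ldha line, the Nfkbiz line against the Ldha line and the Nfkbiz line against the Nampt line. At an unadjusted p under 0.05 there were 0, 1 and 2 members, and DESeq2 called 0, 0 and 1. The members closest to passing were Nr1d2 (-0.60 ± 0.18, adjusted p = 0.064) and Dbp (-0.92 ± 0.33, adjusted p = 0.129), both lower in the Nfkbiz line than in the Nampt line.

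When the 4 WT libraries without FX11 were added to the average, 7 members passed, and Nr1d1 was at -0.20 (adjusted p = 0.336). Without the WT library labelled IL-1β of set 2, chosen after seeing the data, 8 members passed and Nr1d1 was at -0.35 (adjusted p = 0.00959).

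**Figure D2:**
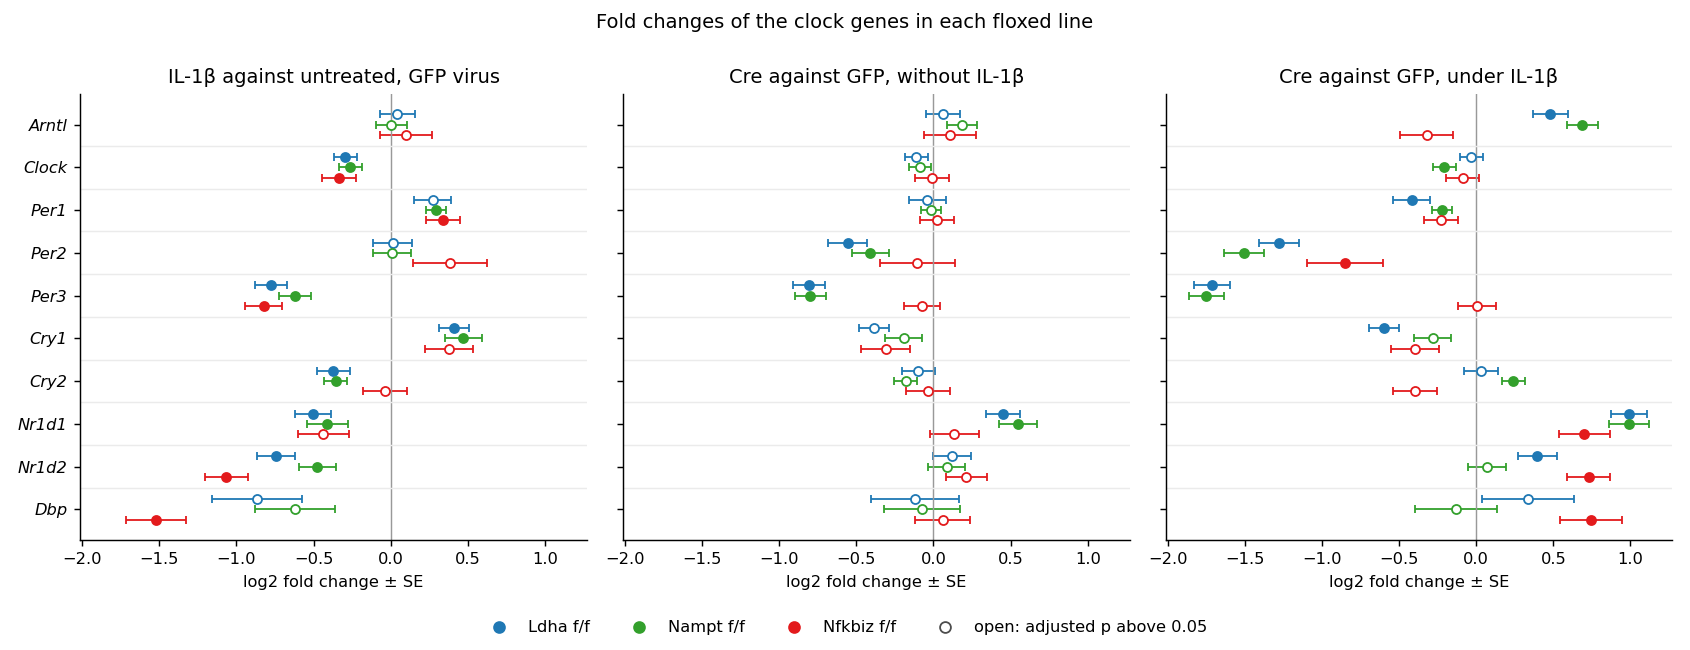
Log2 fold changes (points) with standard errors (bars) of the 10 clock genes in each floxed line, for IL-1β in GFP cultures and for Cre against GFP without and with IL-1β. Filled points pass an adjusted p of 0.05, and Per3 under IL-1β sits at -1.71 and -1.75 in the Ldha line and the Nampt line and at 0.01 in the Nfkbiz line.

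The second question was what Cre-mediated deletion of each gene did to the clock genes in unstimulated chondrocytes. In the Ldha and Nampt lines Per3 and Per2 fell and Nr1d1 rose, 3 members passing in each line, where 5.52% and 14.4% of genes did. In the Nfkbiz line none of the 10 passed by edgeR, none at an unadjusted p under 0.05 and none with DESeq2, and 0.26% of genes passed. In these unstimulated cultures Nfkbiz itself was low with GFP, at 16.1 and 17.0 CPM, and at 9.65 and 8.28 with Cre. The part of that low level in this result was not tested.

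Per3 was at 35.6 and 34.2 CPM with GFP and at 20.6 and 19.9 with Cre in the Ldha line and fell by 0.81 ± 0.10 (adjusted p = 0.0022) by edgeR. In the Nampt line it was at 35.9 and 33.4 CPM with GFP and at 20.7 and 19.5 with Cre (-0.80 ± 0.10, adjusted p = 4.74e-04). With the Nfkbiz line the values of 29 and 32.6 with GFP overlapped those of 31.2 and 27.6 with Cre (-0.08 ± 0.12). The Cre effect on Per3 was less negative in the Nfkbiz line than in the Ldha line by 0.72 ± 0.14 (adjusted p = 0.0079) and than in the Nampt line by 0.72 ± 0.14 (adjusted p = 0.00309), and Per3 was the single member to pass in either comparison, where 1.9% and 5.04% of genes did. In library set 2 alone these differences were 0.71 and 0.69 and did not pass (adjusted p = 0.538 and 0.263).

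Per2 fell by 0.56 ± 0.13 (adjusted p = 0.0335) in the Ldha line and by 0.41 ± 0.12 (adjusted p = 0.0474) in the Nampt line. Leaving out any of the 4 libraries of either comparison ended both calls (adjusted p up to 0.222 and 0.186), as did the fit of all 24 libraries (0.0569 and 0.124), and the call in the Nampt line was lost also with DESeq2 (0.0594) and filterByExpr (0.0511). Nr1d1 rose by 0.45 ± 0.11 (adjusted p = 0.0479) in the Ldha line, from 21.6 and 22.7 CPM to 28 and 33.5, and by 0.55 ± 0.13 (adjusted p = 0.0139) in the Nampt line, from 19.1 and 22 CPM to 27 and 33.4. The values with Cre lay above those with GFP in both lines. The Nr1d1 call in the Ldha line was lost without any one of its 4 libraries (adjusted p up to 0.313) and with voomWithQualityWeights (0.0757), and that in the Nampt line without the set 1 GFP library or the set 2 Cre library (up to 0.123). Averaged over 3 lines, 4 members passed (19% of genes did), the fourth being Cry1 at -0.28 ± 0.07 (adjusted p = 0.00881). The averaged call of Per2 was lost in 5 of 12 fits that left out 1 library and that of Cry1 in 1 of 12, without the set 1 GFP library of the Nampt line. In library set 2 alone the averaged calls of Per2 (adjusted p = 0.217), Cry1 (0.33) and Nr1d1 (0.0596) were lost. Cry1 passed in no single line without a replicate block and in the Ldha line with it (adjusted p = 0.0127). Arntl, Clock, Per1, Cry2, Nr1d2 and Dbp did not pass in any line.

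The third question was how the same deletions changed the clock genes under IL-1β. Per2 fell and Nr1d1 rose in all 3 lines, and in the Ldha line and the Nampt line Per3 fell and Arntl rose. The number of members passing was 7 in the Ldha line (34% of genes), 7 in the Nampt line (48.4%) and 4 in the Nfkbiz line (17.4%). On average over the lines 8 passed (53.9% of genes), 3 higher (24.8%) and 5 lower (29.1%). Mmp3 under IL-1β was also lower with Cre, falling from 872 and 864 CPM to 170 and 161 in the Ldha line. It fell from 879 and 849 to 156 and 149 in the Nampt line. In the Nfkbiz line it fell from 1817 and 1791 to 290 and 274. Nfkbiz fell as well in the Ldha line (177 and 164 to 69.7 and 66.9) and the Nampt line (202 and 204 to 67.7 and 60.8). The part of this lower response in the clock gene changes was not tested.

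Per3 under IL-1β dropped from 21.4 and 19.3 CPM with GFP to 5.56 and 6.78 with Cre in the Ldha line (-1.71 ± 0.12, adjusted p = 3.89e-06). In the Nampt line it dropped from 20.6 and 24 CPM to 6.61 and 6.42 (-1.75 ± 0.11, adjusted p = 5.10e-07). The Nfkbiz line had values of 17.2 and 17.2 with GFP and 18.1 and 17 with Cre, and the difference did not pass (0.01 ± 0.12, adjusted p = 0.977). Per3 was the member whose Cre effect differed most between these lines, by 1.76 ± 0.16 (adjusted p = 1.66e-08) between the Nfkbiz line and the Ldha line (27% of genes passed) and by 1.80 ± 0.16 (adjusted p = 6.12e-09) between the Nfkbiz line and the Nampt line (36.3%).

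Per2 fell from 17.8 and 19.5 CPM to 7.08 and 8.13 in the Ldha line (-1.28 ± 0.13, adjusted p = 6.04e-05) and from 19 and 23 to 7.76 and 6.72 in the Nampt line (-1.51 ± 0.13, adjusted p = 4.27e-06). A fall was also called in the Nfkbiz line, from 13.9 and 10.7 to 7.13 and 6.61 (-0.85 ± 0.25, adjusted p = 0.0312), a call that was lost when either GFP library or the second Cre library was left out (adjusted p up to 0.233) and with voomWithQualityWeights (0.0788). The 6 Per2 values with Cre, 6.61 to 8.13 CPM, lay below the 6 with GFP, 10.7 to 23. Per1 also fell in the Ldha line (-0.42 ± 0.12, adjusted p = 0.023) and the Nampt line (-0.22 ± 0.07, adjusted p = 0.0158), each call lost in 3 of 4 fits that left out 1 library and that in the Nampt line also without a filter on low counts (adjusted p = 0.137), and was at -0.23 ± 0.11 in the Nfkbiz line (adjusted p = 0.188).

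Cry1 had 6 values of 15.3 to 22.9 CPM with Cre and 6 of 23.6 to 29.5 with GFP, with no overlap, and its mean change was -0.44 ± 0.07 (adjusted p = 2.03e-05). By line it passed in the Ldha line alone (-0.60 ± 0.10, adjusted p = 0.00109), with -0.28 ± 0.12 in the Nampt line and -0.40 ± 0.16 in the Nfkbiz line. It passed in the Nampt line with the replicate block (adjusted p = 0.0142), and in the 24-library fit both there (0.0416) and in the Nfkbiz line (0.0303). Cry2 rose in the Nampt line (0.24 ± 0.08, adjusted p = 0.0221), a call lost without any one of its 4 libraries, with DESeq2 (adjusted p = 0.0573) and in the 24-library fit (0.13). It was at -0.40 ± 0.14 in the Nfkbiz line (adjusted p = 0.0807), where it passed without a filter (0.0277) and in the 24-library fit (0.017).

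Nr1d1 rose from 14.6 and 16.8 CPM to 30.1 and 31.1 in the Ldha line (0.99 ± 0.11, adjusted p = 1.28e-04), from 15.3 and 14.9 to 27.5 and 32.2 in the Nampt line (0.99 ± 0.13, adjusted p = 9.93e-05) and from 22.2 and 20.9 to 36.8 and 34.1 in the Nfkbiz line (0.70 ± 0.16, adjusted p = 0.0105). The ranges of 27.5 to 36.8 and 14.6 to 22.2 CPM did not overlap. The call in the Nfkbiz line was lost without either GFP library (adjusted p up to 0.0956). Nr1d2 rose in the Nfkbiz line (0.73 ± 0.14, adjusted p = 0.00314) and in the Ldha line (0.40 ± 0.13, adjusted p = 0.0356), where the call was lost without any one of its 4 libraries, and was at 0.07 ± 0.12 in the Nampt line. Dbp rose in the Nfkbiz line from 4.56 and 3.61 CPM to 6.57 and 7.22 (0.74 ± 0.20, adjusted p = 0.0225), which was lost without the second library of either arm (adjusted p up to 0.197) and with voomWithQualityWeights (0.0614).

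Arntl, which the REV-ERB receptors repress, went from 23.5 and 21.2 CPM to 32 and 29.5 in the Ldha line (0.48 ± 0.11, adjusted p = 0.0084), a call lost in 2 of 4 fits that left out 1 library, without the first Cre or the second GFP library. It went from 24.5 and 21.1 to 36.8 and 36.1 in the Nampt line (0.69 ± 0.10, adjusted p = 2.00e-04), where no such fit lost it. The Nfkbiz line had Arntl at 20.5 and 23.7 CPM with GFP and at 21.4 and 14.4 with Cre (-0.32 ± 0.17, adjusted p = 0.235). Arntl and Nr1d1 were thus both higher with Cre in the Ldha line and the Nampt line. Clock fell in the Nampt line (-0.21 ± 0.07, adjusted p = 0.0358), lost without either set 2 library and without a filter (adjusted p = 0.142), and its averaged change of -0.12 ± 0.05 (adjusted p = 0.0426) was lost in 7 of 12 fits that left out 1 library and with DESeq2, RLE, no filter, filterByExpr and set 2 alone (adjusted p of 0.0566 to 0.417).

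The counting's use of strand is not given in the sources used here, and 3 members share exon bases with a gene on the opposite strand. Nr1d1 shares 263 of its 3077 exon bases with Thra, a thyroid hormone receptor gene. With Cre under IL-1β Thra moved the other way, at -0.46 in the Ldha line and -0.45 in the Nampt line, both passing, and at 0.04 in the Nfkbiz line, which did not pass. With IL-1β in GFP cultures Thra fell, as Nr1d1 did. It went from 112 and 114 CPM to 74.0 and 81.6 in the Ldha line and from 101 and 116 to 67.2 and 68.0 in the Nampt line. In the Nfkbiz line it went from 123 and 117 CPM to 88.4 and 96.7. The part of the shared bases in the fall of Nr1d1 was not tested. Dbp shares 491 of 2945 bases with Sphk2, a sphingosine kinase gene, which fell by 0.33 with IL-1β on average, and Cry2 shares 295 of 6320 with D930015M05Rik, whose median count was 26. Without strand, reads from these shared bases cannot be told apart, and the study's methods say that only unambiguous reads were counted.

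The next comparison asked whether the response to IL-1β itself differed between Cre and GFP cultures of a line. With the Ldha line the response of Per3 was more negative with Cre (-0.91 ± 0.16, adjusted p = 0.00476) and so was that of Per2 (-0.72 ± 0.18, adjusted p = 0.032), 2 members where 11.5% of genes passed. With the Nampt line the response was more negative for Per2 (-1.10 ± 0.18, adjusted p = 0.00143) and Per3 (-0.95 ± 0.15, adjusted p = 0.00138). It was more positive there for Arntl (0.50 ± 0.14, adjusted p = 0.026) and Cry2 (0.42 ± 0.11, adjusted p = 0.0163), which made 4 members where 22% of genes passed. With the Nfkbiz line none passed by edgeR or by DESeq2 (5.19% of genes did by edgeR), and 3 members had an unadjusted p under 0.05. There Per2 was at -0.75 ± 0.35 (adjusted p = 0.291). Leaving out single libraries ended the call of Per2 in the Ldha line in 5 of 8 cases, that of Arntl in the Nampt line in 6 of 8 and that of Cry2 in the Nampt line in 4 of 8, and it ended those of Per3 in either line and of Per2 in the Nampt line in none. With the replicate block the difference passed in the Ldha line also for Nr1d1 (adjusted p = 0.00484), Arntl (0.0218) and Per1 (0.0476), and in the Nampt line for Nr1d1 (0.00934). In the 24-library fit the calls of Arntl (0.0568) and Cry2 (0.0898) in the Nampt line were lost.

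**Figure D3:**
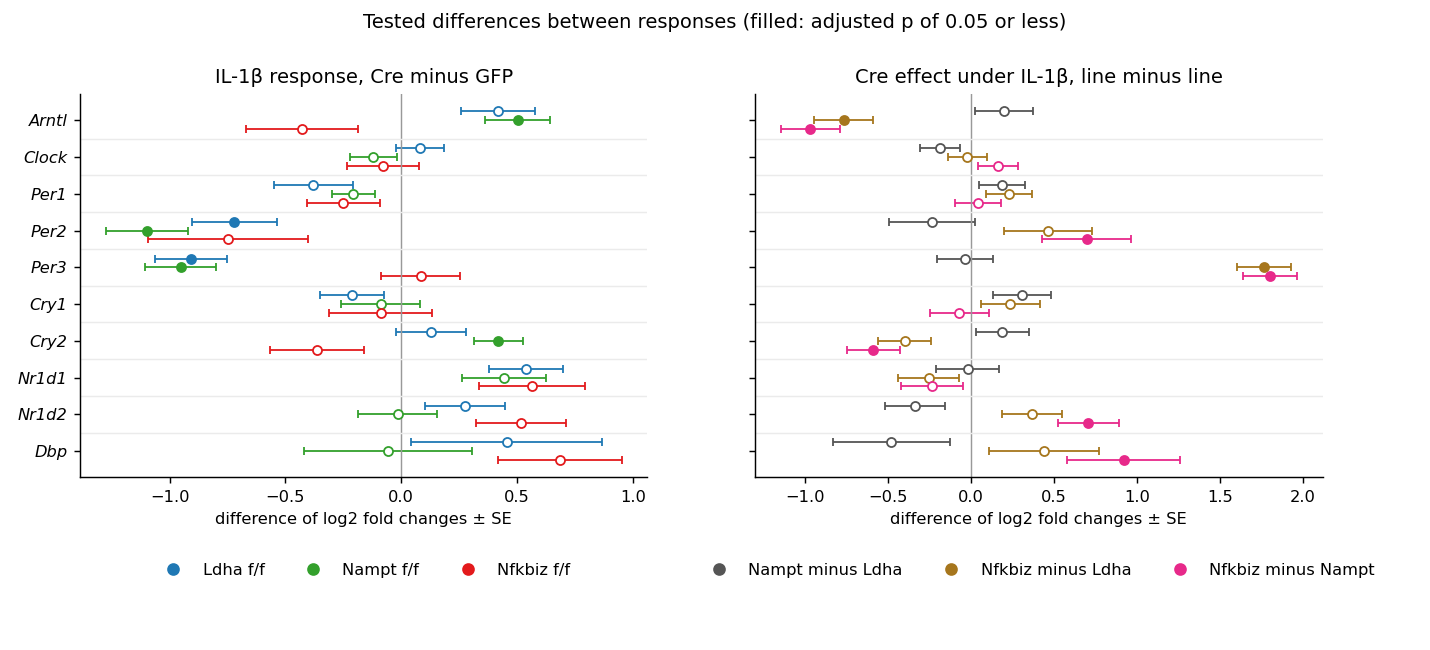
Differences of log2 fold changes (points) with standard errors (bars) for the 10 clock genes: the IL-1β response with Cre minus that with GFP in each line, and the Cre effect under IL-1β in 1 line minus another. Filled points pass an adjusted p of 0.05, and Per3 stands apart at 1.76 and 1.80 for the Nfkbiz line against the other lines.

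Between the Ldha line and the Nampt line no member's Cre effect passed as different. None passed without IL-1β (0.0897% of genes did) or under it (0.538%), none had an unadjusted p under 0.05 in either, and DESeq2 called none. For Per3 the difference was 0.00 ± 0.14 without IL-1β and -0.04 ± 0.17 with it. The Nfkbiz line against the Ldha line under IL-1β gave 2 members (27% of all genes passed), Per3 as above and Arntl (-0.77 ± 0.18, adjusted p = 0.0022). The Nfkbiz line against the Nampt line gave 6 (36.3% of all genes passed). Arntl (-0.97 ± 0.18, adjusted p = 1.56e-04) and Cry2 (-0.59 ± 0.16, adjusted p = 0.00601) were lower in the Nfkbiz line. Nr1d2 (0.71 ± 0.18, adjusted p = 0.00404), Dbp (0.92 ± 0.34, adjusted p = 0.0374) and Per2 (0.70 ± 0.27, adjusted p = 0.0442) were higher, beside Per3. The calls of Dbp and Per2 were lost in 5 of 8 and 6 of 8 fits that left out 1 library. That of Per2 was also lost with the replicate block (adjusted p = 0.0535), RLE scaling (0.0531), filterByExpr (0.0565) and voomWithQualityWeights (0.0752), and that of Dbp with voomWithQualityWeights. These comparisons share the Nfkbiz line libraries, all of set 2. In set 2 alone 3 members passed against the Nampt line, namely Per3 (1.92), Arntl (-1.09) and Nr1d2 (0.92), and Per3 alone (1.51) against the Ldha line.

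Library set moved with some members too. Of the 33 calls within the Ldha line and the Nampt line for IL-1β and for Cre, all 33 had the same sign in each set taken alone. Each set holds a single library of a condition in these lines, and the calls rest on those libraries. Equal signs were therefore close to fixed by the choice of calls and give no separate check. Signs differed for some members not called, such as Dbp with Cre without IL-1β in the Ldha line (0.343 and -0.576). Over the 12 conditions with a library in each set, Arntl was lower in set 2 in 12 and Nr1d1 higher in 11. Nr1d1 was the single member to pass between sets, at 0.40 ± 0.11 (adjusted p = 0.0272; 12.4% of genes), a call lost without either untreated WT library (adjusted p up to 0.0563) and without a filter (0.0513). Without the 8 WT libraries Nr1d1 was at 0.18 (adjusted p = 0.00492) and Arntl, at -0.13, passed as well (adjusted p = 0.0259).

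In WT chondrocytes the question was the effect of IL-1β and FX11 without virus. None of 15461 genes (0%) and none of the members passed by edgeR for IL-1β, for FX11 alone or for FX11 under IL-1β, with 153, 68 and 102 genes at an unadjusted p under 0.05 and none of the members among them, and DESeq2 called no member. In set 1 Per3 was at 27.9 CPM untreated, 34.6 with FX11, 11.6 with IL-1β and 19.0 with both. In set 2 it was at 46.5 untreated, 24.9 in the library labelled FX11, 58.2 in the library labelled IL-1β and 69.4 with both. The highest Per3, Nr1d1, Nr1d2 and Dbp of all 32 libraries were in WT libraries of set 2.

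Dbp in set 1 was at 5.85 CPM untreated, 6.28 with FX11, 4.59 with IL-1β and 6.65 with both, and in set 2 at 19.4, 6.58, 17.5 and 13.8 in the same order of labels. Nr1d1 in set 1 was at 20.6, 27.9, 26.4 and 32.9 CPM and in set 2 at 34.3, 35.8, 54.2 and 77.1, so that the libraries with both agents were highest in each set. Arntl in set 1 was at 15.3 CPM untreated and at 20.2, 24.8 and 25.2 with FX11, IL-1β and both, and in set 2 at 13.8, 18.0, 12.3 and 14.1. In set 2, the library labelled FX11 stood lowest of the 4 for Per3, Cry1, Nr1d2 and Dbp and highest for Arntl and Per1.

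The fitted IL-1β effect on Per3 was -0.09 ± 0.85 with all 8 WT libraries. It was -1.68 without the libraries labelled FX11 and IL-1β of set 2, an alternative chosen after seeing the data. That fit left 1 library each, of set 1, in the arms with IL-1β alone and FX11 alone, which were assumed to vary like the other groups. It held no term for the library set, so its effects also carry the difference between sets. Untreated Per3 was at 27.9 CPM in set 1 and 46.5 in set 2, against 11.6 in the IL-1β library kept. For Dbp the 2 fitted values were -0.18 ± 0.79 and -1.46. Untreated Dbp was at 5.85 CPM in set 1 and 19.4 in set 2, against 4.59 in the IL-1β library kept. For FX11 under IL-1β, Nr1d1 was at 0.46 ± 0.52 and, without those 2 libraries, at 1.07. The latter set 26.4 CPM with IL-1β alone in set 1 against 32.9 with both agents in set 1 and 77.1 in set 2. It therefore carries the difference between sets as well. A simulation of the WT design recovered 1 of 200 genes changed 2-fold. Its spread was taken from all 8 WT libraries as labelled, including the 2 of set 2 that ran against their labels. The part of those 2 libraries in this low recovery was not tested.

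**Figure D4:**
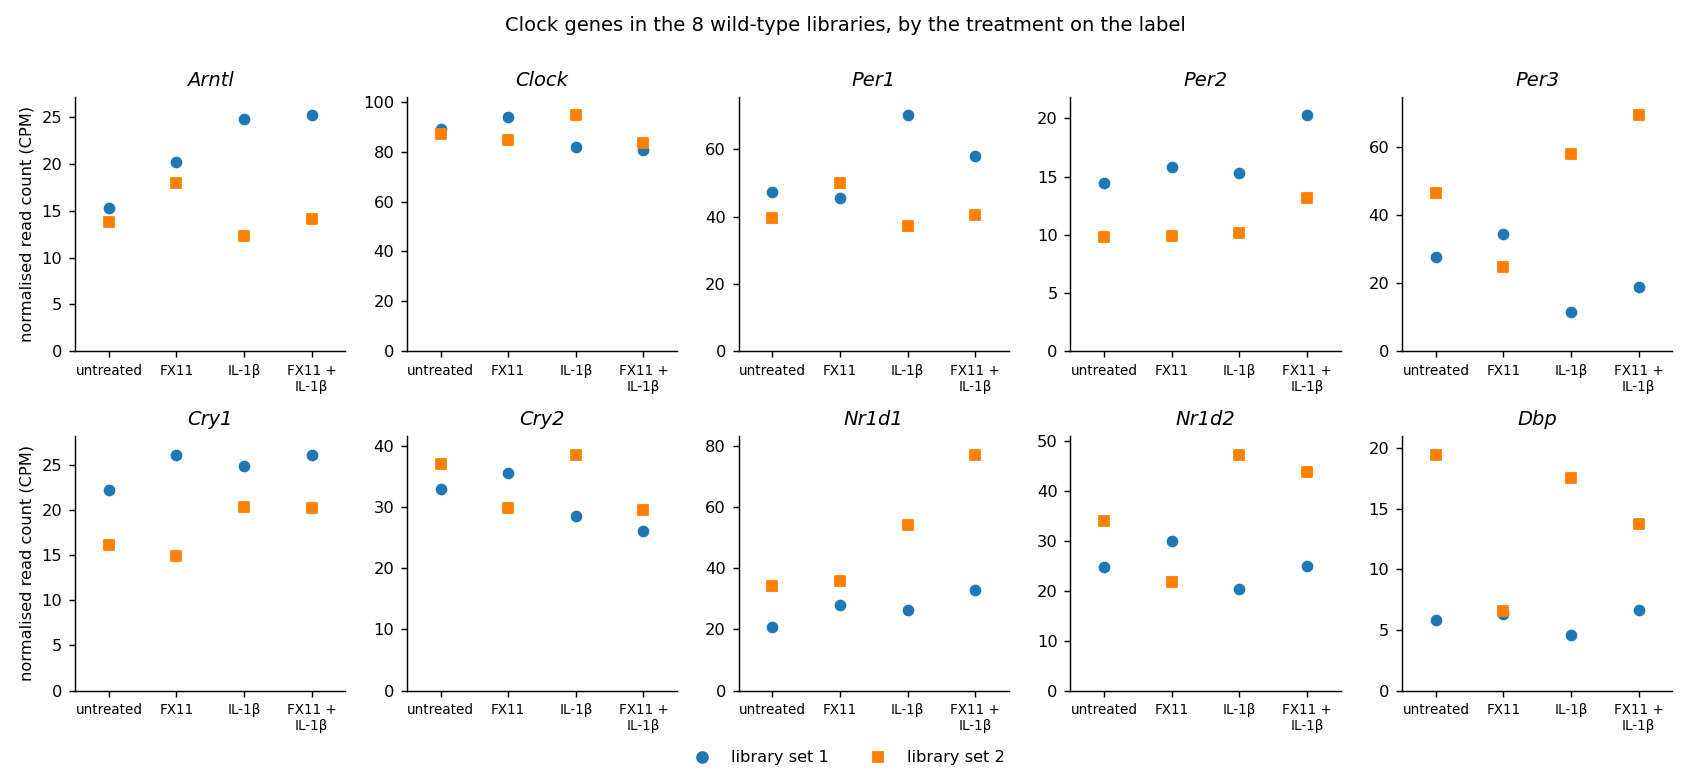
Normalised read counts (CPM, linear axes from 0) of the 10 clock genes in the 8 wild-type libraries, placed by the treatment on the label and marked by library set. Per3 and Dbp of set 2 are at 24.9 and 6.58 CPM in the library labelled FX11 and higher in the other three.

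Further genes of the clock pathway were described as a list of 20, which includes the paralogs Npas2 and Arntl2, the ROR receptors, PAR-domain factors, casein kinases and ubiquitin ligases. With IL-1β in GFP cultures, 16 of the 20 passed on average (52.9% of all genes), 10 higher and 6 lower, with a median log2 fold change of 0.14. Npas2, which can stand in for Clock, rose by 1.45, and Arntl2, the paralog of Arntl, by 0.62. Nfil3, which competes with DBP at D-boxes, rose by 1.11, and Bhlhe40, a repressor at E-boxes, by 0.99. Tef, a factor of the DBP family, fell by 0.80 and the deubiquitinase gene Usp2 by 0.63. Other rises included those of Csnk1e (0.68), Rora (0.55), Timeless (0.33), Csnk1d (0.13) and Fbxw11 (0.10), and other falls those of Ciart (-0.37), Bhlhe41 (-0.26) and Btrc (-0.17). Mean Timeless levels went from 21.5 to 23.7 CPM in the Ldha line and 21.8 to 22.2 in the Nampt line. In the Nfkbiz line they went from 9.88 to 16.8. Those of Arntl2 went from 1.45 to 2.57, 2.34 to 2.49 and 1.60 to 3.00 CPM in the same order of lines. By edgeR the response of 1 of the 20 differed between the Nfkbiz and Ldha lines (2.42% of all genes). That of 3 differed between the Nfkbiz and Nampt lines (4.01%), and none between the Nampt and Ldha lines (0.012%).

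With Cre under IL-1β, 10 of the 20 passed in the Ldha line (34% of all genes did), 5 higher and 5 lower. The Nampt line had 11 (48.4% of all genes), 7 higher and 4 lower. The Nfkbiz line had 7 of the 18 tested (17.4% of all genes), 2 higher and 5 lower. Usp2 rose by 1.38, 1.53 and 1.01 in the Ldha line, the Nampt line and the Nfkbiz line, and Tef by 0.68, 1.02 and 1.00. Ciart, a repressor of CLOCK and BMAL1, had log2 fold changes of -1.16, -0.98 and -0.64, and Rora of -0.48, -0.54 and -0.78, all passing. Csnk1e, a kinase of PER proteins, rose in the Ldha line (0.92) and the Nampt line (1.13) and was at -0.23 in the Nfkbiz line. Arntl2 rose in the first 2 lines by 1.33 and 1.47 and was at -0.11 in the Nfkbiz line. The Cre effect of the Nfkbiz line differed from that of the Ldha line for both, by -1.11 for Csnk1e (adjusted p = 2.39e-08) and -1.41 for Arntl2 (adjusted p = 0.00299).

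Among the rest under IL-1β, Bhlhe40 rose in the Nampt line (0.26) and fell in the Nfkbiz line (-0.86), Npas2 fell in the Ldha line (-0.80) and the Nfkbiz line (-1.28), and Nfil3 fell in the Ldha line (-0.56) and the Nfkbiz line (-0.63). Rorb rose in the Ldha line (1.75) and the Nampt line (1.00), and Bhlhe41 in the Nampt line (0.59). Rorb levels were low, with means going from 0.516 to 1.81 CPM in the Ldha line and from 1.35 to 2.63 in the Nampt line. Timeless fell in the Ldha line (-0.32), and Fbxw11 (-0.19) fell in the Nampt line. Without IL-1β, 3 of the 20 passed in the Ldha line (5.52% of all genes did), namely Arntl2 (1.40), Csnk1e (0.37) and Ciart (-0.61). In the Nampt line, 6 passed (14.4% of all genes did), namely Rorb (1.66), Usp2 (0.50), Tef (0.38), Bhlhe40 (0.37), Csnk1e (0.36) and Ciart (-0.44). Rorb was low there, at a mean of 0.284 CPM with GFP and 0.927 with Cre. In the Nfkbiz line, none of the 18 tested passed by edgeR (0.26% of all genes did), and none had an unadjusted p under 0.05.

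Across the 24 libraries of the floxed lines the members were also compared with each other, as Pearson correlations of log2 CPM, which share library, line and treatment and are given as descriptions. Cry1 and Nr1d1 were the most opposed pair (-0.809), followed by Cry1 and Nr1d2 (-0.756). Clock and Dbp (0.778) and Clock and Per3 (0.773) were the most alike. Among 10874 genes over all 32 libraries, the levels most like Dbp were those of Smarca2 (0.937), Wasf3 (0.924) and Mtmr3 (0.917), and the most opposed those of Cdc7 (-0.930), Spata13 (-0.928) and Umps (-0.928). For Arntl they were Arpc4 (0.891), Psmc1 (0.877) and Baiap2l1 (0.874), and Gpr27 (-0.872), Slc24a3 (-0.863) and Trim44 (-0.851). For Per2 they were Zfp131 (0.838), Ino80 (0.833) and Zfp280c (0.832), and Abhd8 (-0.858), Scly (-0.842) and Mfsd11 (-0.840).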

How the data were processed

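RNA was depleted of ribosomal RNA and sequenced, and per the labels and the study's methods reads were aligned with STAR to the Ensembl release 76 assembly of GRCm38 and counted per gene with featureCounts. The deposited files hold raw read counts, and beside them CPM and RPKM that the authors computed from each library's counts. The labels name STAR 2.0.4b and featureCounts 1.45, and the study's methods name other versions. The strand setting is not given in the sources used here. The members and gene lists were chosen with earlier results of these data known.

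Of 41388 gene identifiers, 40340 were named through GENCODE M21, and 355 ribosomal RNA genes were left out. Counts were tested with edgeR 4.0.16 (R 4.3.3, limma 3.58.1) by the quasi-likelihood F test after TMM normalization, among genes above 1 CPM in at least 1 library of a fit (11 in the comparison of sets), with Benjamini-Hochberg adjustment over all genes. Each line was fitted on its own 8 libraries, and averages over lines and differences between lines came from 1 fit of 24 libraries with a term for the library set. Printed CPM use TMM factors over all 32 libraries. Libraries held 15830658 to 39959888 counts. Values are named for all members, for the targeted and IL-1β response genes, for genes of a list of 20 other clock genes that passed, for genes sharing exon bases with members, and for the 3 genes most and least correlated with Arntl, Dbp and Per2 among those with a mean of at least 5 CPM. The exception is that Hlf, Fbxl21 and Sirt1, which passed in none of the comparisons named from that list, are not described, and some values of that list are not reported here although its counts include them.

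The tests were checked on simulated counts with 200 genes changed 2-fold. They recovered 200 for IL-1β averaged over lines with 15 false calls among 15823 genes, 169 in the Ldha line, 172 in the Nampt line and 175 in the Nfkbiz line, and 1 in WT. The simulated WT spread came from the WT libraries as labelled. Alternatives were DESeq2 1.42.0, voomWithQualityWeights, RLE scaling, filterByExpr, no filter, a replicate block, the 24-library fit, set 2 alone and leaving out each library. Motifs and figures used Python 3.11.15.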

Additional observations from a re-analysis of the deposited data

Results flagged for a closer look

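Tested differences between groups drew attention to 16 results, all of them in the Cre cultures. The difference is on the log2 scale in each case.

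The Cre effect on Per3 was less negative in the Nfkbiz line than in the Ldha line by 0.72 without IL-1β and by 1.76 with it, and than in the Nampt line by 0.72 and 1.80. Per3 is therefore the member in which the lines differed both with and without the cytokine. Under IL-1β the Cre effect on Arntl was lower in the Nfkbiz line, at -0.77 against the Ldha line and -0.97 against the Nampt line. Against the Nampt line the differences were also -0.59 for Cry2, 0.70 for Per2, 0.71 for Nr1d2 and 0.92 for Dbp. All libraries of the Nfkbiz line are in set 2, and the part of the set in these differences was not tested beyond the fit on set 2 alone.

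The response to IL-1β was lower with Cre than with GFP for Per2 in the Ldha line (-0.72) and the Nampt line (-1.10) and for Per3 in the same lines (-0.91 and -0.95). It was higher with Cre in the Nampt line for Arntl (0.50) and Cry2 (0.42). The summed level of chondrocyte genes was also lowest with Cre and IL-1β, at 13900 to 39500 CPM, and its part in these values was not tested.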

How the results depend on the processing

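Counts of passing members under settings that left out no single library numbered 197, of which 181 lay within 1.5 times the reported count. The cause of the other 16 was not tested, except that set 2 alone has fewer libraries. With set 2 alone, 1 member passed for Cre without IL-1β averaged over lines (4 reported). For the Nfkbiz line against the Ldha line the Cre effect then gave 0 without IL-1β (1 reported) and 1 under it (2 reported), and against the Nampt line 0 (1 reported) and 3 (6 reported). All genes passing with set 2 alone also fell, from 3179 to 860 for Cre without IL-1β averaged over lines. Against the Ldha line they went from 317 to 25 without IL-1β and from 4513 to 1537 under it. Against the Nampt line they went from 843 to 70 and from 6067 to 2884. For the IL-1β response of the Nfkbiz line against the Nampt line, DESeq2 and voomWithQualityWeights each called 1 (0 reported). All genes passing there went from 670 to 811 and 1233. For the IL-1β response with Cre against GFP, the 24-library fit called 2 in the Nampt line (4 reported) and 1 in the Nfkbiz line (0 reported). All genes passing in that fit rose in both lines, from 3552 to 3880 and from 797 to 1861. For Cre under IL-1β in the Nfkbiz line, voomWithQualityWeights called 2 (4 reported), and all genes passing went from 2666 to 2419. Between sets, DESeq2 and filterByExpr each called 3, and voomWithQualityWeights, RLE and the fit without wild type each called 2 (1 reported). All genes passing there rose from 1756 to 2644, 1969, 3073, 1855 and 3280 in the same order.

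The replicate block raised the count for the IL-1β response with Cre against GFP in the Ldha line to 5 (2 reported). All genes passing there rose from 1825 to 3374 of 15880. The block moved no other count of members by over 1.5 times. The single calls it changed in the Ldha and Nampt lines and between lines stand beside their results, and in the Nfkbiz line it ended that of Per1 for IL-1β (adjusted p = 0.0529). In the Ldha and Nampt lines the number is also the library set, and the labels do not state that equal numbers mark a shared culture. Deviations of same-numbered libraries correlated at 0.40 to 0.64 in the Ldha line, 0.43 to 0.57 in the Nampt line, -0.28 to 0.097 in the Nfkbiz line and -0.24 to 0.72 in WT.

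With 1 library left out, the counts ran from 8 to 9 for IL-1β averaged over lines, 2 to 4 for Cre without IL-1β and 7 to 9 for Cre under it. In the Ldha line they ran from 4 to 7 for IL-1β, stood at 1 for Cre without IL-1β, and ran from 4 to 5 for Cre under it and 1 to 3 for the difference in response. In the Nampt line they ran from 4 to 6, 1 to 2, 4 to 6 and 2 to 4, and in the Nfkbiz line from 3 to 4, 0 to 0, 1 to 5 and 0 to 1, in the same order. Between lines they ran from 0 to 1 for the IL-1β response of the Nfkbiz line against the Nampt line, 1 to 2 and 4 to 6 for its Cre effect without and under IL-1β, and 2 to 3 for that against the Ldha line under IL-1β. Between sets they ran from 0 to 2.

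Of 4010 values of single members, 3745 kept direction and side of the threshold, 140 lost the call, 56 gained one, 69 moved without a call, and none reversed with a call. Having 2 libraries a condition limits every call, and standard errors cover the spread between libraries alone.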
